A study of Mus musculus with 3 samples.

Results

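The genes described are 7 transcription factors of the mesenchymal state, Snai1, Snai2, Twist1, Twist2, Zeb1, Zeb2 and Prrx1, together with Vim, which encodes the intermediate filament protein vimentin. They were picked by symbol, so that 8 of the 24421 genes in the count table were taken by a rule that uses no measured value. The list itself was drawn up with earlier results of these data known. The data are RNA sequencing counts from JB6 P+ cells, a mouse epidermal line that tumour promoters can transform and that is labelled as epithelial cells of the skin. There were 3 libraries, 1 per group. The first came from cells given the phorbol ester TPA (10 ng/mL) together with CDDO (50 nM), a synthetic oleanane triterpenoid. The second came from cells given TPA (10 ng/mL) without CDDO, and the third from the control. The treatments were given every second day over 5 days in medium with 1% serum. The sources used here do not give the control's medium, time or vehicle, so a difference from control cannot be told apart from those conditions. All samples came from the same line, and nothing in the labels says how many cultures went into a library.

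SNAI1 and SNAI2 are zinc finger repressors that bind E-boxes, short DNA elements found among other places in the promoter of the E-cadherin gene Cdh1. TWIST1 and TWIST2 are basic helix-loop-helix proteins that pair with E proteins, and ZEB1 and ZEB2 are zinc finger and homeodomain repressors that also act at E-boxes. PRRX1 is a homeodomain factor of limb and craniofacial mesenchyme. In epithelia such factors are known for the epithelial-mesenchymal transition (EMT), in which adherens junction genes are turned off and vimentin becomes a main filament. In fibroblasts and other mesenchymal cells several such factors can be expressed without that transition.

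The 3 libraries differed little in depth: 7872089 reads were assigned to genes in the CDDO+TPA library, 7813035 in the TPA library and 8190078 in the control library. Reads were expressed as CPM, the count of a gene relative to its scaled library size, and 13100 genes that reached 1 CPM somewhere were compared, all 8 genes among them. Without replicates, the spread between cultures is unknown for every difference given. The size rule asks for a log2 difference in CPM of 1 or more in either direction and for a ratio whose 95% counting interval excludes 1. This rule and every interval cover counting error only and describe the libraries, not the treatments. The column taken as CDDO+TPA names CDDO alone, and it was matched to the only sample whose labels name CDDO.

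The promoters of 3 of the genes are shown because Snai1 and Zeb2 had the highest and lowest log2 difference between the TPA and control libraries and Twist1 followed Snai1. Each run gives, 5′ to 3′ on the gene's strand, the 250 bases before a RefSeq transcript start in GRCm38.p6. They are chr2:167537945-167538194 (plus strand) for Snai1, chr12:33957421-33957670 (plus strand) for Twist1 and chr2:45117443-45117692 (minus strand) for Zeb2, at the start farthest upstream of 4 listed. The Zeb2 model used for counting begins at 45113279, another of the 4 starts, so the window shown lies upstream of the counted gene. Capitals mark CAGGTG, the E-box core that SNAI proteins bind, on either strand.
Snai1: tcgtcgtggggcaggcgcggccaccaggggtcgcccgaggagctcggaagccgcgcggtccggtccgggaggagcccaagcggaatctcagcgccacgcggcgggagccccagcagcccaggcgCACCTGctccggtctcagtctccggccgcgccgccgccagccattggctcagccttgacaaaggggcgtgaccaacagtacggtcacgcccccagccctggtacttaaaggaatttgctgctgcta
Twist1: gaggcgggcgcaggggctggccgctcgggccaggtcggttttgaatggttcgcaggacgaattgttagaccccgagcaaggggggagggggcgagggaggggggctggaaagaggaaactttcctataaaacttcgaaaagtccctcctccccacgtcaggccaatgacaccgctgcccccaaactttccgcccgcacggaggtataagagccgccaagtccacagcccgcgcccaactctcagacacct
Zeb2: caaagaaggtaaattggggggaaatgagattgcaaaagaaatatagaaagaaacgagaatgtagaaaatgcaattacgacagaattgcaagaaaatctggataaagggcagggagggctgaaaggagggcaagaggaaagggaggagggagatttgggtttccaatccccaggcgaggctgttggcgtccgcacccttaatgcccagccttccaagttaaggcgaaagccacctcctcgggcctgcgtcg
The Snai1 window held 1 such E-box, read on the opposite strand as CACCTG, which began 126 bases before the transcript start, and the Twist1 and Zeb2 windows held none. Of all 32851 promoter windows of this length in the RefSeq table, 17.2% held CAGGTG on either strand. The AP-1 element TGANTCA, the DNA motif through which phorbol ester responses were defined, was in none of these 3 windows and in 6.75% of all windows. It occurred 2 times in the Zeb2 window before the start most downstream of the 4, at 189 and 132 bases before that start. The Zeb2 window before the start at 45113279 held neither motif. Windows for 6 of the 8 genes were in the table. A match is a description of letters and says nothing of binding in these cells.

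The label of the cells was set against marker genes. Krt5, a basal keratin, and Epcam, an epithelial adhesion molecule, had 0 reads in all 3 libraries, and Krt14, the partner of Krt5, had 1 read in the CDDO+TPA library, 0 in the TPA library and 1 in the control library. A count of 0 allows up to 0.380 CPM in the CDDO+TPA library, 0.377 in the TPA library and 0.374 in the control library. Cdh1 itself, the E-cadherin gene, had 4, 1 and 4 reads in the CDDO+TPA, TPA and control libraries. Of 13 keratinocyte markers, 6 were compared, 4 were at 0 in every library, and their summed level was 32.8 CPM in the CDDO+TPA library, 62.5 in the TPA library and 23.96 in the control library. Of 11 mesenchymal markers, 9 were compared, and the summed level was 1155 CPM in the CDDO+TPA library, 949 in the TPA library and 1638 in the control library. That list includes Vim, 1 of the 8 genes. Without it the sum was 799.7 CPM in the CDDO+TPA library, 579 in the TPA library and 1371 in the control library. In these libraries, in that order, Col1a1 had 267, 152 and 529 CPM and Col1a2 had 207, 144 and 506 CPM. Col3a1, Pdgfrb and Fbn1 were also highest in the control library. Pdgfra (76.9, 34.9 and 5.24 CPM), Dcn (33.6, 25.7 and 8.49) and S100a4 (80.3, 82.7 and 71.6) were instead lowest there. Thy1 and Lum each had 1 read in the CDDO+TPA library and 0 in the others. Other genes of the keratinocyte list were present: Itgb4, a hemidesmosome integrin gene, had 26 reads in the CDDO+TPA library, 185 in the TPA library and 23 in the control library, Pkp3 had 130, 132 and 27, Krt10 had 52, 73 and 104, and Sfn had 26, 78 and 24 in the same libraries. Itgb4 made up 23.2 CPM of the sum in the TPA library. The keratinocyte list was thus mixed, with basal keratins, Epcam and Cdh1 at or near 0, and all 8 genes described here had at least 226 reads in every library. Leukocyte markers held 0 reads of Ptprc, the pan-leukocyte gene, in all libraries. They summed to 85.8 CPM in the CDDO+TPA library, 61.8 in the TPA library and 52.0 in the control library. Within that sum Cd68 had 71.2, 52.2 and 22.1 CPM in the same libraries. Cd74 ran the other way, with 5.45, 6.78 and 23.6 CPM, and Lyz2 had 8.36, 2.01 and 6.12 CPM. Endothelial markers summed to 199 CPM in the CDDO+TPA library, 292 in the TPA library and 50.7 in the control library, and melanocyte or Schwann cell markers to 40.4, 20.8 and 29.7 CPM in the CDDO+TPA, TPA and control libraries. Nearly all of the endothelial sum was Vwf, which had 1561 reads in the CDDO+TPA library, 2307 in the TPA library and 400 in the control library, while Cdh5, the endothelial cadherin gene, had 0, 1 and 3 reads. Most of the melanocyte or Schwann cell sum was Mitf, with 35.2, 15.9 and 25.3 CPM in the CDDO+TPA, TPA and control libraries. The part of these markers in the results was not tested.

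Among the 8 genes Snai1 was highest in the TPA library, with a level in the CDDO+TPA library close to that of the control. Snai2 was lowest in the CDDO+TPA library and similar in the other two. Zeb2 ran the other way from Snai1, lowest in the TPA library, while Zeb1 varied least of the 8. Twist1 and Twist2 were highest in the TPA library, and Prrx1 and Vim were higher in both treated libraries than in the control. The plot of levels by library shows these patterns.

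**Figure D1:**
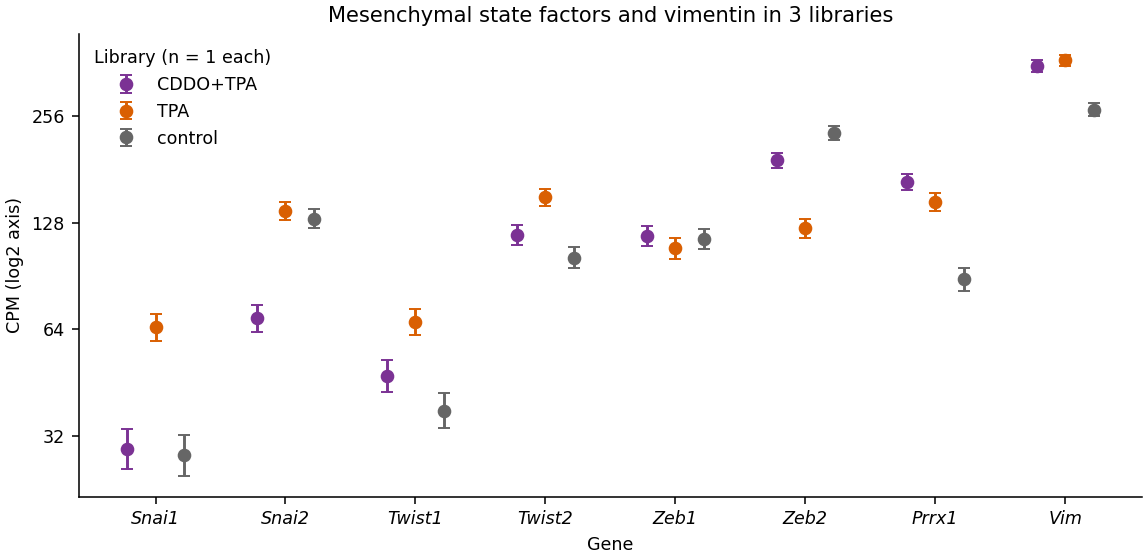
CPM on a log2 axis for each of the 8 genes in the CDDO+TPA, TPA and control libraries, 1 library per group, with exact Poisson 95% counting intervals as bars. Snai1 stood at 64.9 CPM in the TPA library, above 29.4 in the CDDO+TPA library and 28.2 in the control library, and Zeb2 at 123 CPM in the TPA library, below 192 in the CDDO+TPA library and 230.0 in the control library.

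Levels of different genes were compared as CPM per kilobase of exon, with the exon lengths of the deposited table. Vim was first in every library, with 194 CPM per kb in the CDDO+TPA library, 201 in the TPA library and 146 in the control library. Twist2 came second with 90.1, 115 and 77.8 CPM per kb, and Snai2 came next with 34.2, 68.9 and 65.3 CPM per kb, in the CDDO+TPA, TPA and control libraries. These 3 genes kept their places, but the order below them changed between libraries. In the control library Zeb2 (24.6 CPM per kb), Twist1 (23.1), Zeb1 (19.9) and Snai1 (17.8) followed, each with a counting interval that overlapped that of the next, and Prrx1 was last at 11.9. In the TPA library Twist1 (41.2) and Snai1 (40.9) overlapped each other and stood apart from Prrx1 (19.7) and Zeb1 (18.7), which also overlapped, and Zeb2 was last at 13.2. In the CDDO+TPA library Snai2 overlapped Twist1 (29.0), and Prrx1 (22.4), Zeb2 (20.5), Zeb1 (20.2) and Snai1 (18.5) each overlapped the next. Vim lay above 99.9% of the 13100 compared genes per kilobase in the TPA library, and Zeb1, near the middle, above 54.1%. In total RNA from a whole culture, fewer cells expressing a gene and less of its RNA per cell cannot be told apart.

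TPA against control addresses how the mesenchymal factors stood in cells under the tumour promoter alone. Of the 8 genes, 1 was past the size rule as higher, none as lower, and 7 missed it. Among all compared genes 15.5% were past it, 9.57% as higher and 5.91% as lower, so the share of 12.5% among the 8 was near the background. Among the 9890 genes whose mean reached 10 CPM, a range that holds all 8, 8.67% were past it, 3.85% as higher and 4.81% as lower.

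Snai1, which lies on chromosome 2 from 167538227 to 167542811 on the plus strand in mm10, was the gene past the rule. It had 517 reads (64.9 CPM) in the TPA library, against 226 reads (28.2 CPM) in the control library. The TPA library was 2.30-fold higher (95% counting interval 1.96 to 2.70), a log2 difference of 1.20, and 5.57% of the genes with a mean of at least 10 CPM differed by more. Snai2, its closest relative, had 1104 reads (139 CPM) in the TPA library, against 1053 reads (131 CPM) in the control library. Its ratio was 1.05 (0.968 to 1.15), and whether the interval held 1 depended on the scaling: it was 1.10 (1.01 to 1.20) under both total-count and upper-quartile scaling.

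Zeb2, on the minus strand of chromosome 2 from 44983512 to 45113279, had 983 reads (123 CPM) in the TPA library, against 1843 reads (230.0 CPM) in the control library. It was 1.86-fold lower (1.72 to 2.02) in the TPA library, a log2 difference of -0.90, short of the size rule. Its relative Zeb1, on chromosome 18 from 5591860 to 5775468, had 864 reads (108 CPM) in the TPA library, against 925 reads (115 CPM) in the control library, a ratio of 0.940 (0.855 to 1.03). The 2 ZEB genes thus differed in what they showed: Zeb2 was lower beyond counting error and Zeb1 was not. Exons of Zeb2 share 332 bases with those of Zeb2os, on the opposite strand, and counting did not use strand. Zeb2os had 10 reads in the CDDO+TPA library, 4 in the TPA library and 8 in the control library.

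The TWIST genes were both higher in the TPA library beyond counting error and short of the rule. Twist1, on chromosome 12 from 33957671 to 33959831, had 67.2 CPM in the TPA library, against 37.7 CPM in the control library, and was 1.78-fold higher (1.54 to 2.06). Twist2, on chromosome 1 from 91801477 to 91848027, had 151 CPM in the TPA library, against 102 CPM in the control library, and was 1.48-fold higher (1.35 to 1.62). Prrx1, on the minus strand of chromosome 1 from 163245119 to 163313650, had 147 CPM in the TPA library, against 88.6 CPM in the control library, 1.65-fold higher (1.5 to 1.82).

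Vim, on chromosome 2 from 13574311 to 13582826, had 2942 reads (369 CPM) in the TPA library, against 2144 reads (268 CPM) in the control library. This was 1.38-fold higher with TPA (1.31 to 1.46), a log2 difference of 0.46. The column names carry a mark of duplicate removal, and removal by position would limit the reads a base can start. Vim held 1.53 reads per exonic base in the CDDO+TPA library, 1.60 in the TPA library and 1.17 in the control library. Across 22658 genes with exons of at least 500 bases, the highest value was 1.73 in the CDDO+TPA library, 1.83 in the TPA library and 1.76 in the control library. Vim was exceeded by 7 genes in the CDDO+TPA library, 13 in the TPA library and 77 in the control library, so its level in the treated libraries lay near the highest value of any gene. Whether this narrowed the difference of Vim was not tested. In the TPA library Twist2 held 0.917 reads per base of exon, next after Vim among the 8, and Snai1 held 0.326.

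**Figure D2:**
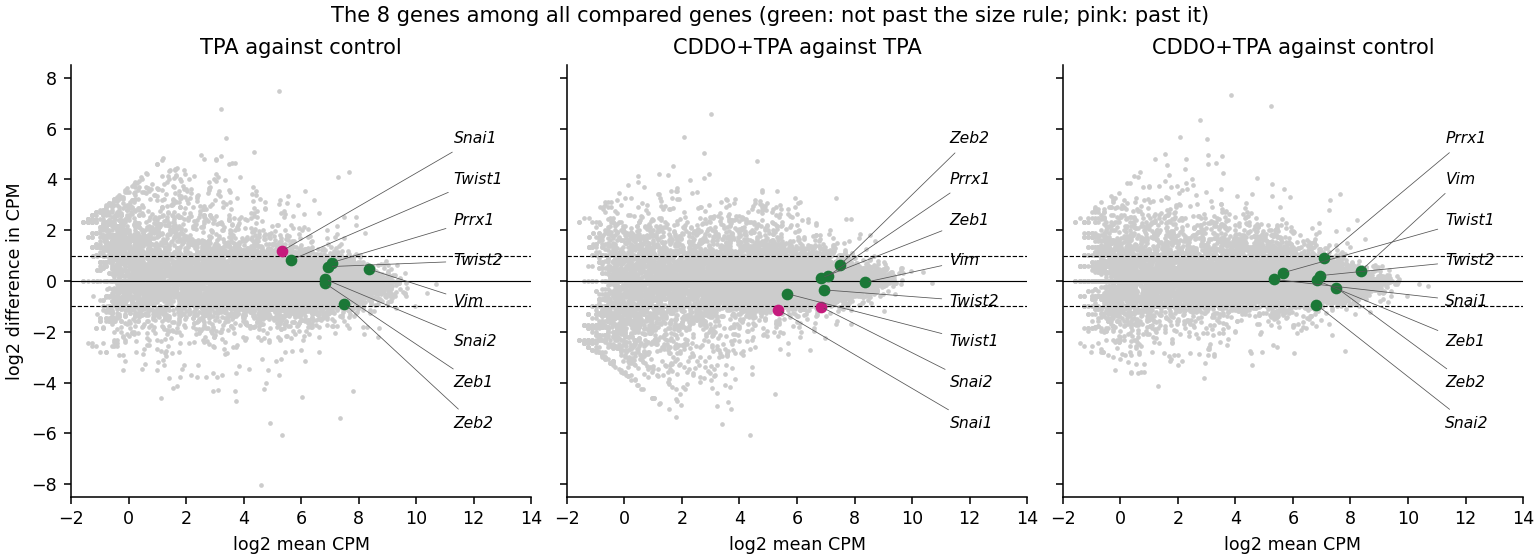
Log2 difference in CPM against log2 mean CPM over the 3 libraries for 13100 compared genes (grey) and the 8 genes (green or pink), 1 panel per comparison, with dashed lines at the log2 difference of 1 in size. Green marks genes of the 8 that missed the size rule and pink those past it: Snai1 for TPA against control (1.20), Snai1 (-1.14) and Snai2 (-1.01) for CDDO+TPA against TPA, and none for CDDO+TPA against control.

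Setting CDDO+TPA against TPA addresses how the factors stood when CDDO was present beside TPA. This comparison shares the TPA library with the comparison above, so a chance value of that library enters both with opposite sign. Of the 8 genes, 2 were past the size rule as lower, none as higher, and 6 missed it. This is a share of 25.0%, where 15.6% of all compared genes were past it, 7.87% as higher and 7.78% as lower. Among genes whose mean reached 10 CPM, 7.57% were past the rule, 5.28% as higher and 2.3% as lower. With 8 genes, the share among them differs from the background by the calls of 1 or 2 genes.

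Both genes past the rule were SNAI genes. Snai1 had 232 reads (29.4 CPM) in the CDDO+TPA library, against 517 reads (64.9 CPM) in the TPA library, and was 2.21-fold lower (1.89 to 2.59), a log2 difference of -1.14. Snai2, on chromosome 16 from 14705859 to 14709382, had 542 reads (68.7 CPM) in the CDDO+TPA library, against 1104 reads (139 CPM) in the TPA library. It was 2.02-fold lower (1.82 to 2.24), a log2 difference of -1.01 that passed the threshold of 1 by little. The interval of its ratio held values on both sides of a 2-fold difference.

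Zeb2 had 1517 reads (192 CPM) in the CDDO+TPA library, against 983 reads (123 CPM) in the TPA library, and was 1.56-fold higher (1.44 to 1.69). Zeb1 had 117 CPM in the CDDO+TPA library, against 108 CPM in the TPA library, a ratio of 1.08 (0.985 to 1.19) whose interval held 1. Twist1 had 47.3 CPM in the CDDO+TPA library, against 67.2 CPM in the TPA library, 1.42-fold lower (1.24 to 1.63). Twist2 was 1.28-fold lower (1.17 to 1.39), with 118 CPM in the CDDO+TPA library, against 151 CPM in the TPA library. For Twist1, Twist2 and Zeb2 the intervals excluded 1 and the differences were short of the rule. Prrx1 had 167 CPM in the CDDO+TPA library, against 147 CPM in the TPA library, a ratio of 1.14 (1.05 to 1.23). Vim had 356 CPM in the CDDO+TPA library, against 369 CPM in the TPA library, a ratio of 0.963 (0.914 to 1.01). Under total-count scaling the ratio was 0.947 (0.899 to 0.998), an interval that excluded 1.

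None of the 8 genes was past the size rule in CDDO+TPA against control, which shares a library with each of the other comparisons. Of all compared genes 11.4% were past it, 8.02% as higher and 3.37% as lower. Among those whose mean reached 10 CPM, 6.79% were, 5.13% as higher and 1.67% as lower. The intervals of 6 genes still excluded 1. Snai2 was 1.91-fold lower (1.72 to 2.13) in the CDDO+TPA library and Prrx1 1.88-fold higher (1.72 to 2.07), with log2 differences of -0.93 and 0.91, the largest in size of the 8. Vim was 1.33-fold higher (1.26 to 1.41), Twist1 1.25-fold higher (1.07 to 1.46), Twist2 1.16-fold higher (1.05 to 1.27) and Zeb2 1.20-fold lower (1.12 to 1.28). For Snai1, with 29.4 CPM in the CDDO+TPA library and 28.2 CPM in the control library, the ratio was 1.04 (0.864 to 1.26). Zeb1 had a ratio of 1.02 (0.927 to 1.11). The interval for Snai1 leaves room for a level up to 1.26-fold higher in the CDDO+TPA library.

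Ratios between related genes within a library do not depend on scaling between libraries. Per exonic base, the ratio of Snai1 to Snai2 was 0.543 (0.463 to 0.634) in the CDDO+TPA library, 0.594 (0.534 to 0.660) in the TPA library and 0.272 (0.235 to 0.314) in the control library. The TPA ratio was 2.18 times the control ratio (1.82 to 2.62) and the CDDO+TPA ratio 1.99 times (1.61 to 2.48), while the CDDO+TPA ratio was 0.914 times the TPA ratio (0.755 to 1.10), an interval that held 1. The ratio was high in the CDDO+TPA library with Snai2 at its lowest, and in the TPA library with Snai1 at its highest. The ratio of Zeb2 to Zeb1 was 1.02 (0.936 to 1.10) in the CDDO+TPA library, 0.706 (0.644 to 0.775) in the TPA library and 1.24 (1.14 to 1.34) in the control library, with no overlap between any of the 3. The ratio of Twist1 to Twist2 was 0.322 (0.285 to 0.363), 0.358 (0.323 to 0.397) and 0.297 (0.260 to 0.340) in the CDDO+TPA, TPA and control libraries. Set against each other, the TPA ratio was 1.20 times the control ratio (conditional exact counting interval 1.02 to 1.43), which excluded 1. The CDDO+TPA ratio was 0.899 times the TPA ratio (0.765 to 1.06) and 1.08 times the control ratio (0.902 to 1.30), and both intervals held 1.

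**Figure D3:**
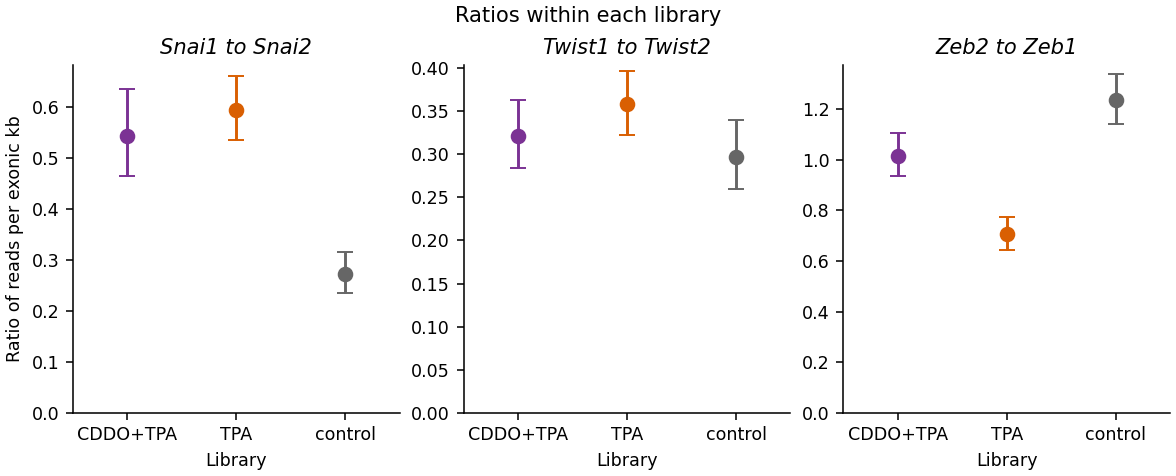
Ratio of reads per exonic kilobase between related genes (Snai1 to Snai2, Twist1 to Twist2, Zeb2 to Zeb1) within the CDDO+TPA, TPA and control libraries, with exact binomial 95% counting intervals as bars and axes from 0. The SNAI ratio was lowest in the control library (0.272) and the ZEB ratio lowest in the TPA library (0.706), and the TWIST ratio was highest in the TPA library (0.358).

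For the 3 of the 8 genes with the widest range, the genes of most like pattern were found by the distance between mean-centred log2 CPM over the 3 libraries, among 9889 others with a mean of at least 10 CPM. For Snai1 these were Asb6, an ankyrin repeat and SOCS box gene (distance 0.04), Rgl2, a Ral exchange factor (0.04), and Irf2bp2, a transcriptional cofactor (0.05). Rgl2 had 50.0 CPM in the CDDO+TPA library, 111 in the TPA library and 46.5 in the control library. For Snai2 they were 4930413G21Rik (0.02), the rhomboid-like gene Rhbdl1 (0.03) and Tmem79 (0.04), and for Prrx1 they were the biliverdin reductase gene Blvrb (0.04), Mum1l1 (0.04) and the kinase gene Cdk5 (0.06). Within a distance of 0.1 there were 11 genes for Snai1, 13 for Snai2 and 33 for Prrx1. With 3 libraries such likeness is a description and many genes can share a pattern.

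Other transcription factors tied to EMT, with E proteins and their ID inhibitors, formed a list of 27 genes, of which 19 were compared. The counts of this list and those that follow stand beside the shares of all compared genes past the rule. These were 15.5% (9.57% higher, 5.91% lower) in TPA against control and 15.6% (7.87% higher, 7.78% lower) in CDDO+TPA against TPA. In CDDO+TPA against control the share was 11.4% (8.02% higher, 3.37% lower). Of the 19 genes, 4 were higher and 1 was lower in TPA against control, and 14 missed the rule. Their median log2 difference was 0.10 where the median of all compared genes was 0.00. Sox9, a factor of cartilage and hair follicle, was 3.60-fold higher (3.26 to 3.99), with 228 CPM in the TPA library, against 63.1 CPM in the control library. Foxc2, a forkhead factor of mesenchyme, was 2.74-fold higher (2.26 to 3.35) and Runx1, a Runt domain factor, 2.29-fold higher (2.12 to 2.47). Klf8, a Krüppel-like factor, was 2.29-fold lower (1.94 to 2.70). The remaining call was the forkhead gene Foxq1, named after its values were seen, with 14 reads in the CDDO+TPA library, 47 in the TPA library and 11 in the control library. Of the 19, 1 (Foxq1) was lower and none higher in CDDO+TPA against TPA, with a median of -0.32 where that of all compared genes was 0.01. For CDDO+TPA against control, 2 were higher and none lower, with a median of 0.01: Sox9 was 2.66-fold higher (2.40 to 2.96) and Sox4 2.70-fold higher (1.97 to 3.74). Klf8 just missed the rule there (log2 difference -0.999) and was past it as lower with a prior count of 0.5. Id4, with few reads, was past the rule as higher in TPA against control under total-count and upper-quartile scaling.

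The E protein genes, whose products pair with TWIST, were present in every library. Tcf3 had 118, 133 and 124 CPM, Tcf12 had 265, 241 and 309 CPM and Tcf4 had 84.8, 122 and 124 CPM in the CDDO+TPA, TPA and control libraries. None of them was past the rule, but Tcf4 was 1.44-fold lower (1.30 to 1.59) in CDDO+TPA against TPA. Against control it was 1.46-fold lower (1.33 to 1.62). Cofactors of SNAI and ZEB proteins and genes for their turnover formed a list of 27, of which 26 were compared. None was higher in any of the 3 comparisons, and the median log2 difference was -0.15 in TPA against control, -0.04 in CDDO+TPA against TPA and -0.09 in CDDO+TPA against control. In each comparison 1 gene was lower and 25 missed the rule, and the lower gene was Lox, a collagen cross-linking oxidase, with 0 reads in the CDDO+TPA library, 8 in the TPA library and 23 in the control library. Gsk3b, the kinase that marks SNAI1 for degradation, had 253, 264 and 379 CPM and Ctbp1, a corepressor, had 164, 171 and 176 CPM in the CDDO+TPA, TPA and control libraries.

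Epithelial genes, among them those that SNAI and ZEB proteins repress in epithelia, formed a list of 42. Only 16 reached 1 CPM in a library, so most lay below 1 CPM in every library and were not compared. Of the 16, 6 were higher and 1 was lower in TPA against control, and 9 missed the rule, with a median log2 difference of 1.02. Of the 16, 5 reached 1 CPM in the TPA library alone, among them Esrp2, Tjp3 and St14 of the 6 higher genes. The filter fixed their direction, so neither this count nor the median is read further. The genes past the rule with few reads, named after their values were seen, were Esrp2, Tjp3 and St14, higher, and Krt7, lower. Tjp3, a tight junction scaffold gene, had 36 reads in the TPA library and 1 read in each of the others. Among those above 10 CPM, Pkp3, a desmosomal plakophilin, was 4.92-fold higher (3.23 to 7.74), with 16.6 CPM in the TPA library, against 3.37 CPM in the control library. Cgn, which encodes the tight junction protein cingulin, was 2.39-fold higher (1.92 to 2.99), and Pard6b, a polarity gene, 2.08-fold higher (1.73 to 2.5). Against TPA, the CDDO+TPA library was higher for 2 of the 16 (Grhl2 and Krt7) and lower for 4 (Esrp2, Tjp3, St14 and Prss8), with a median of -0.48. All 4 lower genes reached 1 CPM in the TPA library alone, so the filter fixed that direction, and neither this count nor the median is read further. Grhl2, a grainyhead factor known to repress Zeb1 in epithelial cells, had 59 reads in the CDDO+TPA library, against 11 reads in the TPA library, and was 5.41-fold higher (2.82 to 11.4). The control library had 14 Grhl2 reads. Against control, the CDDO+TPA library was higher for 3 (Grhl2, Pkp3 and Cgn) and lower for none, with a median of 0.01. Krt8, which missed the rule, reached 1 CPM in the CDDO+TPA library alone, so the filter fixed its direction in both comparisons of that library. Esrp1, an epithelial splicing regulator, had 0, 3 and 1 reads in the CDDO+TPA, TPA and control libraries, and Ovol2, another repressor of Zeb1, had 0 reads in all 3. The table rows for the microRNA genes of the families known to repress Zeb1 and Zeb2 held 0 reads in every library; mature microRNAs are not captured by such counts.

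Mesenchymal effector genes, the matrix, adhesion and contractile genes that go with these factors, formed a list of 40, of which 36 were compared. Of these, 3 were higher (Pdgfra, Dcn and Tnc) and 11 lower in TPA against control, and 22 missed the rule, with a median of -0.44. An earlier result on these data had already shown Col5a2, Col1a1 and Col3a1 lower in the TPA library, so this count is no independent observation. Postn reached 1 CPM in the control library alone, so the filter fixed its direction in both comparisons against control. Among list genes with a mean of at least 10 CPM, 3 were higher and 10 lower in TPA against control. In CDDO+TPA against control, 3 of those were higher and 5 lower. The collagen gene Col5a2 was 20.1-fold lower (17.5 to 23.1), Col3a1 was 4.65-fold lower (3.67 to 5.94) and Col1a2 was 3.50-fold lower (3.28 to 3.74), whereas Pdgfra, a PDGF receptor, was 6.66-fold higher (4.80 to 9.45). Cdh2, the N-cadherin gene, had 208 CPM in the CDDO+TPA library, 169 in the TPA library and 211 in the control library, and was not past the rule in any comparison. Between CDDO+TPA and TPA, 5 were higher (Col5a2, Fbn1, Pdgfra, Fbln1 and Timp1), 1 was lower and 30 missed the rule, with a median of 0.29. Fbln1, a fibulin, was 3.05-fold higher (2.51 to 3.72) and Timp1, a metalloproteinase inhibitor, 2.83-fold higher (2.39 to 3.37), whereas Pdgfrb was 3.12-fold lower (2.66 to 3.67). Between CDDO+TPA and control, 3 were higher (Pdgfra, Dcn and Tnc) and 6 lower, with a median of -0.18. Pdgfra was 14.7-fold higher (10.7 to 20.6) and the proteoglycan gene Dcn 3.96-fold higher (3.02 to 5.24).

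Vimentin was also set beside other intermediate filament genes and the plakins that link filaments to junctions, a list of 24 with 18 compared. In TPA against control 4 were higher (Nefh, Sync, Ppl and Evpl, all with few reads), 3 were lower (Synm, Dst and Krt7) and 11 missed the rule, with a median of 0.25. Synm, which encodes the vimentin partner synemin, was 3.55-fold lower (2.71 to 4.70), with 8.79 CPM in the TPA library, against 31.2 CPM in the control library, and Dst, the plakin dystonin, was 2.00-fold lower (1.94 to 2.07). The Dst call was lost under each of the 3 other scalings, with log2 differences of -0.99, -0.94 and -0.94, and Prph, an intermediate filament gene, was then past the rule as higher. Nefh, Ppl and Evpl reached 1 CPM in the TPA library alone, so the filter fixed their direction here and against CDDO+TPA. Krt8 reached it in the CDDO+TPA library alone, which fixed its direction in both comparisons of that library. The counts that include these genes, and the medians of this list, are not read further. When CDDO+TPA was set against TPA, 3 were higher (Des, Synm and Krt7), 2 were lower (Ppl and Evpl) and 13 missed the rule, with a median of 0.26. Synm was 2.31-fold higher (1.73 to 3.10) and Des, the desmin gene, 2.02-fold higher (1.69 to 2.43). The Des call was lost under total-count scaling (log2 difference 0.99), upper-quartile scaling (0.99) and a prior count of 5 (0.998). When it was set against control, 3 were higher (Des, Nes and Sync) and none lower, with a median of 0.51, or 0.24 with genes at 0 reads in a library set to their bound against a floor of 3 counts. Nes, which encodes nestin, was 2.48-fold higher (2.27 to 2.71) in that comparison, with 211 CPM in the CDDO+TPA library, 118 in the TPA library and 85.4 in the control library. Krt8 and Krt18, the simple epithelial keratin pair, had at most 8 and 0 reads in any library.

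Genes known to induce the mesenchymal state, TGF-beta, Notch, receptor kinase and other signals, formed a list of 33, of which 30 were compared. In TPA against control 3 were higher (Notch4, Notch1 and Tgfb2), 4 were lower (Egfr, Wnt5a, Il6 and Stat3) and 23 missed the rule, with a median of 0.12. Notch4, a Notch receptor of endothelium, had 145 reads in the CDDO+TPA library, 92 in the TPA library and 4 in the control library, and was 23.1-fold higher (8.74 to 86.7) in TPA against control. Notch1 was 3.06-fold higher (2.52 to 3.75), while Egfr, the EGF receptor gene, was 2.17-fold lower (1.84 to 2.57) and Wnt5a, a Wnt ligand, 2.24-fold lower (1.62 to 3.14). For Stat3 the call was lost under total-count (log2 difference -0.97) and upper-quartile scaling (-0.96). Relative to TPA, CDDO+TPA had 1 gene higher, 1 lower (Tgfb2) and 28 that missed the rule, with a median of 0.01. The higher gene, Wnt5a, was 2.39-fold higher (1.73 to 3.33). Relative to control, CDDO+TPA had 1 higher (Notch4) and 1 lower (Il6), with a median of 0.10. Notch1 (log2 difference 0.99) was also higher in that comparison under total-count and upper-quartile scaling. Smad7 (-0.98 in CDDO+TPA against TPA) was past the rule as lower under total-count scaling. Tgfb1, the main TGF-beta ligand gene, had 102 CPM in the CDDO+TPA library, 82.9 in the TPA library and 56.3 in the control library, and was not past the rule.

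**Figure D4:**
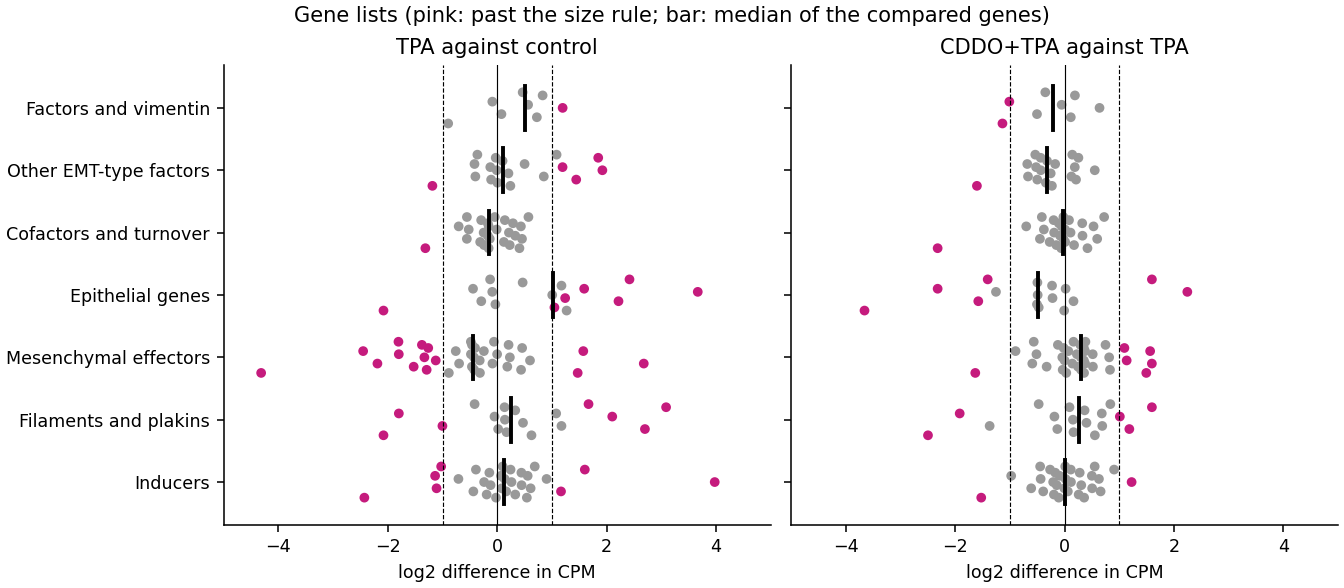
Log2 difference in CPM of each compared gene in the 8 genes and the 6 lists, for TPA against control on the left and CDDO+TPA against TPA on the right; each point is a gene, pink points are past the size rule, dashed lines mark the log2 difference of 1 in size and black bars are medians. The 8 genes had a median of 0.51 on the left, where all compared genes had 0.00, and of -0.20 on the right, where all compared genes had 0.01.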

How the data were processed

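The assay was sequencing of total RNA, with 1 library in each of 3 groups. The table deposited by the authors holds raw read counts for each gene symbol. Per the file headers, featureCounts 1.5.3 counted primary alignments over mm10 genes (UCSC), and its command set nothing for strand, pairs or multi-mapping. HISAT2, Picard and DESeq are named without a version in the submitters' processing notes. The sources used here do not say how duplicates were removed or whether cultures were pooled. The header lists 7 alignment files, and 3 columns are used.

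TMM factors (edgeR 4.0.16, R 4.3.3) scaled the library totals, and log2 CPM used a prior count of 2, which understates differences of genes with few reads. Ratios are CPM ratios without a prior, with exact conditional binomial 95% intervals (scipy 1.17.1). Within-library ratios were compared between libraries by conditional exact intervals of the odds ratio. Reads are not independent molecules, so intervals cover counting error alone. Genes entered with at least 1 CPM in any library. The design has no replicates and no p-value is given. The size rule was checked on simulated data that held counting error alone and changes larger than the threshold. That check says nothing of spread between cultures or of differences near the threshold.

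The 8 genes and the 6 lists were chosen with earlier results of these data known. Named list genes were, per list and comparison, up to 4 of largest absolute log2 difference past the size rule with at least 10 CPM in a library, 7 defining epithelial genes, and genes of most like pattern; others were named after their values were seen. Exons overlapping on opposite strands were taken from the deposited annotation. Promoter sequences are from RefSeq (GRCm38.p6). Alternatives were other scalings, prior counts, filters and a smaller size threshold.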

Additional observations from a re-analysis of the deposited data

How the results depend on the processing

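The calls among the 8 genes fell on Snai1 in TPA against control and on Snai1 and Snai2 in CDDO+TPA against TPA. They stayed the same with scaling by total count, upper quartile or relative log expression, and with a prior count of 0.5 or 5. The filter settings, no filter beyond 1 read and a mean of 10 CPM or more, could not change these calls. A filter only removes genes, and all 8 genes pass both settings. Over the scalings and prior counts the log2 difference of Snai1 ran between 1.18 and 1.26 in TPA against control and between -1.16 and -1.13 in CDDO+TPA against TPA, and that of Snai2 between -1.03 and -1.01 in CDDO+TPA against TPA. None of the 120 such values of the 8 genes moved by as much as the half-width of its counting interval on the log2 scale. Another scaling shifts all genes of a comparison by nearly the same amount, and the prior count moves genes with this many reads little. This outcome was thus nearly given in advance and is not read further. At a log2 threshold of 0.58, 4 of the 8 were past the rule in TPA against control (Snai1, Twist1 and Prrx1 higher, Zeb2 lower) and 2 in CDDO+TPA against control (Prrx1 higher, Snai2 lower), and Zeb2 (higher) joined Snai1 and Snai2 in CDDO+TPA against TPA. That threshold passes more genes by construction. Of the 13100 compared genes, 3861 (29.5%) were past it in TPA against control. For CDDO+TPA against TPA they were 3715 (28.4%) and for CDDO+TPA against control 2919 (22.3%). At the threshold of 1 and a mean of 10 CPM or more, where fewer genes are compared, 857, 749 and 672 genes were past the rule in the same order. There the higher genes' share of the calls in TPA against control was 44.5% instead of 61.8%. In CDDO+TPA against TPA it was 69.7% instead of 50.3%. Another scaling moved the median of all genes by at most 0.06 (log2). Of 144 list counts under the alternatives, 121 stayed within 1.5 times. Leaving out a replicate was not possible with 1 library per group. No paired analysis was possible because each group has 1 library. Depth limits Snai1 most, which had the fewest reads of the 8 genes (226 in the control library).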

Other observations

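The ratio of Snai1 to Zeb2 per exonic base, a pair chosen after the values were seen, was 0.902 (95% exact binomial counting interval 0.782 to 1.04) in the CDDO+TPA library, 3.10 (2.78 to 3.45) in the TPA library and 0.723 (0.627 to 0.831) in the control library. Snai3, the remaining SNAI gene, had 1 read in the CDDO+TPA library, 1 in the TPA library and 0 in the control library. Prrx2, the relative of Prrx1, had 69, 95 and 67 reads in the CDDO+TPA, TPA and control libraries, where Prrx1 had 1318, 1167 and 710.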
